A study of Arabidopsis thaliana with 6 samples.

Results

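The transcripts described here gave a strong signal in wild-type seedlings of Arabidopsis thaliana and a clearly weaker one in seedlings of the pkl-1 mutant. Of 22746 probe sets on the array, 105 were chosen by 4 conditions on the log2 signals. These were a wild-type mean of 8 or more, a pkl-1 mean of 3.5 or more, a pkl-1 mean at least 0.7 below the wild-type mean, and every pkl-1 array below every wild-type array. A single gene is paired with 38 of the 105, while 2 match several genes and 65 are unnamed here; the 38 are the members described below. They were chosen from the same contrast in which their values are given, so their levels and differences are a description and carry no test.

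Whole seedlings aged 14 days, grown on half-strength Murashige and Skoog agar under continuous light, were profiled on Affymetrix arrays, with 3 arrays for each genotype, the mutant pkl-1 and wild-type Col-0. The labels name no agent, transgene or further allele, and they call the 3 samples of a genotype biological replicates without saying whether they were separate cultures. The values are GCRMA signals in log2 units, in which a difference of 1 is 2-fold. Signals of different probe sets depend on their probes, so a level is compared here only between arrays of the same probe set.

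PICKLE (PKL) is an ATPase of the CHD3 class that moves nucleosomes, and is known for keeping embryonic genes off after germination and for its link to the repressive histone mark H3K27me3. Mutants in PKL are also smaller than wild type and can keep embryonic traits in the root. Thionins, defensins and lipid-transfer proteins are small secreted proteins, and expansins, class III peroxidases and glutaredoxins act in cell walls or in redox reactions; 1 or more members of each kind are described below. The members are ordered by roles assigned to the loci by hand from background knowledge, with 10 given none, so the number in each class is no measure of enrichment.

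Array medians lay between 5.03 and 5.13 log2 units. The 3' minus 5' signal of the actin, GAPDH and ubiquitin control probe sets lay between 1.29 and 4.16 over the 3 controls and 6 arrays, with overlapping ranges in the genotypes for each control; its part in the results was not tested. Of the tissue markers fixed for the analysis 5 were measured by named probe sets. RCA, the Rubisco activase of green tissue, had a mean of 13.20 ± 0.03 in the mutant and 13.24 ± 0.09 in wild type, and PYK10, a root beta-glucosidase, at 11.96 ± 0.11 and 11.95 ± 0.16 (SD, n = 3 each), so that shoot and root RNA were both present. The root hair genes EXPA7 and EXPA18 and the guard cell gene FAMA had differences of -0.33, -0.17 and -0.38, and none of the 5 markers passed (limma adjusted p 0.597 to 0.959). PKL itself is not analysed here, as its probe set is unnamed. In whole seedlings, fewer cells of a type and less RNA per cell cannot be told apart.

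Over the 105 probe sets the difference, pkl-1 minus wild type, had a median of -0.99 log2 units and ran from -3.41 to -0.70. At least 2-fold lower were 52 of them, and 9 were at least 4-fold lower. Among the 38 members with a gene name the median was -0.94, with 16 at least 2-fold and 7 at least 4-fold lower. Over all 4736 probe sets with a wild-type mean of 8 or more, the median difference was -0.01. Wild-type means of the named members ran from 8.06 to 11.41 and pkl-1 means from 5.03 to 9.90. The lowest single arrays of a named member were at 3.88 for AT2G32160 and 4.23 for EXPA8, both in pkl-1. In all probe sets with a wild-type mean of 8 or more, 14.8% had every pkl-1 array below every wild-type array. With the same limits and the sign turned, 47 probe sets were higher in pkl-1, 17 of them paired with 1 gene.

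**Figure D1:**
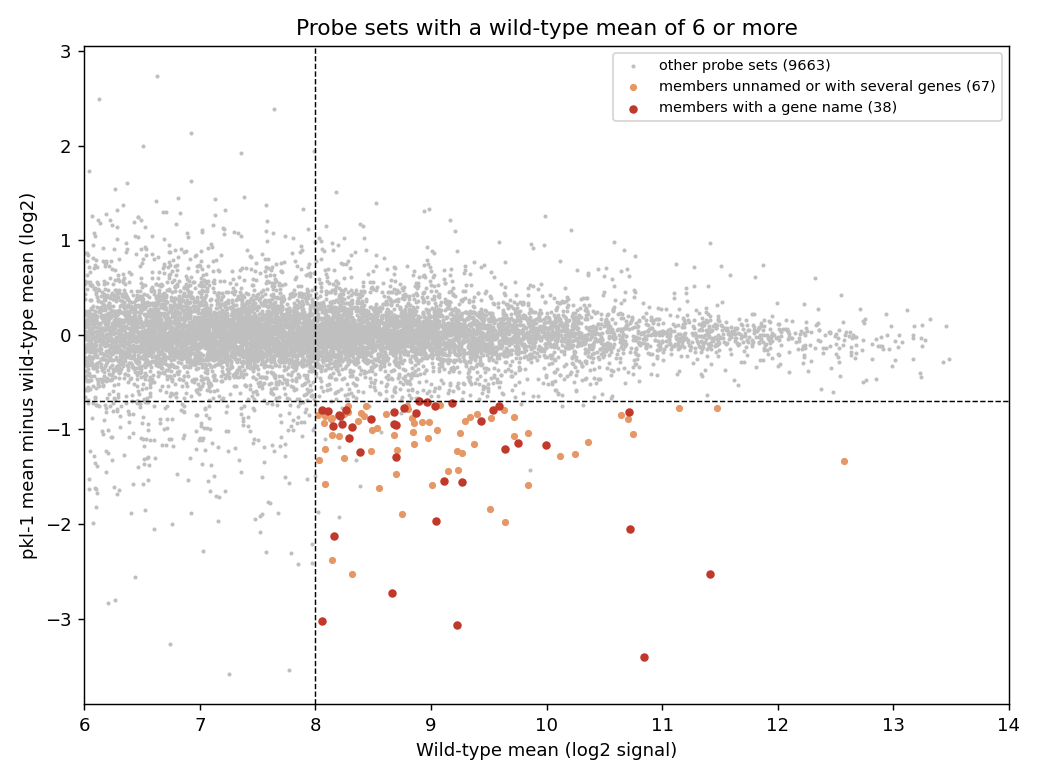
Each point is a probe set, with its wild-type mean (log2 signal) on the x axis and the pkl-1 mean minus the wild-type mean (log2) on the y axis; dashed lines mark the limits of 8 and -0.7. The named members in red and the other members in orange lie below the main cloud, and the most negative named member is at -3.41.

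In the limma fit over all 22746 probe sets, 68 of the 105 and 24 of the 38 named members passed at an adjusted p of 0.05. The background was 1.31% of all probe sets called lower and 2.24% of those with a wild-type mean of 8 or more. Nothing is read from these counts, since the same contrast chose the members. Just inside the limit on the difference were AT3G01060 at -0.70, AT2G26690 at -0.71 and AT1G52510 at -0.72, and just outside it were AT1G71970 at -0.70, AT4G22212 at -0.68 and AT5G61670 at -0.67. At the limit on the level, AT1G04800 and AT2G32160, both with a wild-type mean of 8.06, were inside, and EXLB1 at 7.999 and AT3G22060 at 7.97 were outside. Another 16 probe sets met every condition except the order of the arrays, 7 of them paired with 1 gene.

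The 11 named members placed under secreted and cell wall proteins had differences from -3.41 to -0.75 and a median of -1.23. Values of single arrays are given below in the order of replicate numbers 1, 2 and 3, and each ± is an SD with n = 3. AT1G66100 encodes a thionin, a small antimicrobial peptide rich in cysteine. It read 10.81, 11.14 and 10.57 in wild type and 7.58, 7.54 and 7.19 in pkl-1, a 10.6-fold difference. Its lowest wild-type array stood 2.99 log2 units above its highest pkl-1 array, the widest gap among the named members. AT2G43590, of the chitinase family that cuts the chitin of fungal walls, read 8.79, 8.44 and 8.77 in wild type and 5.97, 5.88 and 5.95 in pkl-1. The pkl-1 arrays of this chitinase gene lay within 0.09 log2 units of each other, at 5.93 ± 0.05 against 8.66 ± 0.20 in wild type, which is 6.64-fold lower.

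AT5G48490, a lipid-transfer protein gene that lies beside the systemic immunity gene DIR1, read 11.49, 11.50 and 11.25 in wild type and 9.40, 8.96 and 8.29 in pkl-1. The wild-type arrays were close together and the pkl-1 arrays spread over more than 1 log2 unit, with means of 11.41 ± 0.14 and 8.88 ± 0.56, a 5.78-fold difference. PDF1.2b, a plant defensin known as a target of jasmonate and ethylene signalling, read 8.42, 8.22 and 7.83 in wild type and 5.31, 6.32 and 6.44 in pkl-1. Its means were 8.16 ± 0.30 and 6.03 ± 0.62, a 4.38-fold difference, and the genotypes were separated by 1.39 log2 units. The probe set of PDF1.2b is of the type that can match related transcripts, so the signal cannot be assigned to this defensin alone.

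EXPA8, an alpha-expansin that loosens cell walls during growth, read 9.98, 9.97 and 7.74 in wild type and 7.64, 6.62 and 4.23 in pkl-1. Its difference of -3.07 was the second most negative and came with the widest spread, 9.23 ± 1.29 in wild type and 6.16 ± 1.75 in pkl-1. The highest pkl-1 array lay only 0.10 log2 units below the lowest wild-type array, and the array numbered 3 was far below the other arrays in both genotypes. AT5G47550 encodes a cystatin, an inhibitor of cysteine proteases. This cystatin gene read 8.60, 8.78 and 8.66 in wild type and 7.71, 7.77 and 7.72 in pkl-1, at 8.68 ± 0.09 and 7.74 ± 0.03. Its difference of -0.94 was far smaller than that of EXPA8 but exceeded the spread of its arrays many times over. AT1G67330, of the DUF579 family that includes methyltransferases of wall polysaccharides, read 8.53, 8.28 and 8.33 in wild type and 7.15, 7.07 and 7.23 in pkl-1, which is 2.35-fold lower.

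Both peroxidase genes among the members, AT5G64100 and AT3G21770, encode class III enzymes that act in the cell wall. AT5G64100 read 9.44, 9.66 and 9.66 in wild type and 8.78, 8.97 and 8.75 in pkl-1, a difference of -0.76 with no overlap. AT3G21770 was at 9.03 ± 0.07 in wild type and 8.29 ± 0.07 in pkl-1, so both genotypes were tight and the difference was 1.68-fold. BGLU40, a beta-glucosidase, had a difference of -0.89, and AT5G45950, of the GDSL esterase and lipase family, had one of -0.78. In BGLU40 the wild-type arrays lay within 0.11 log2 units while the pkl-1 arrays ranged over 0.60.

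**Figure D2:**
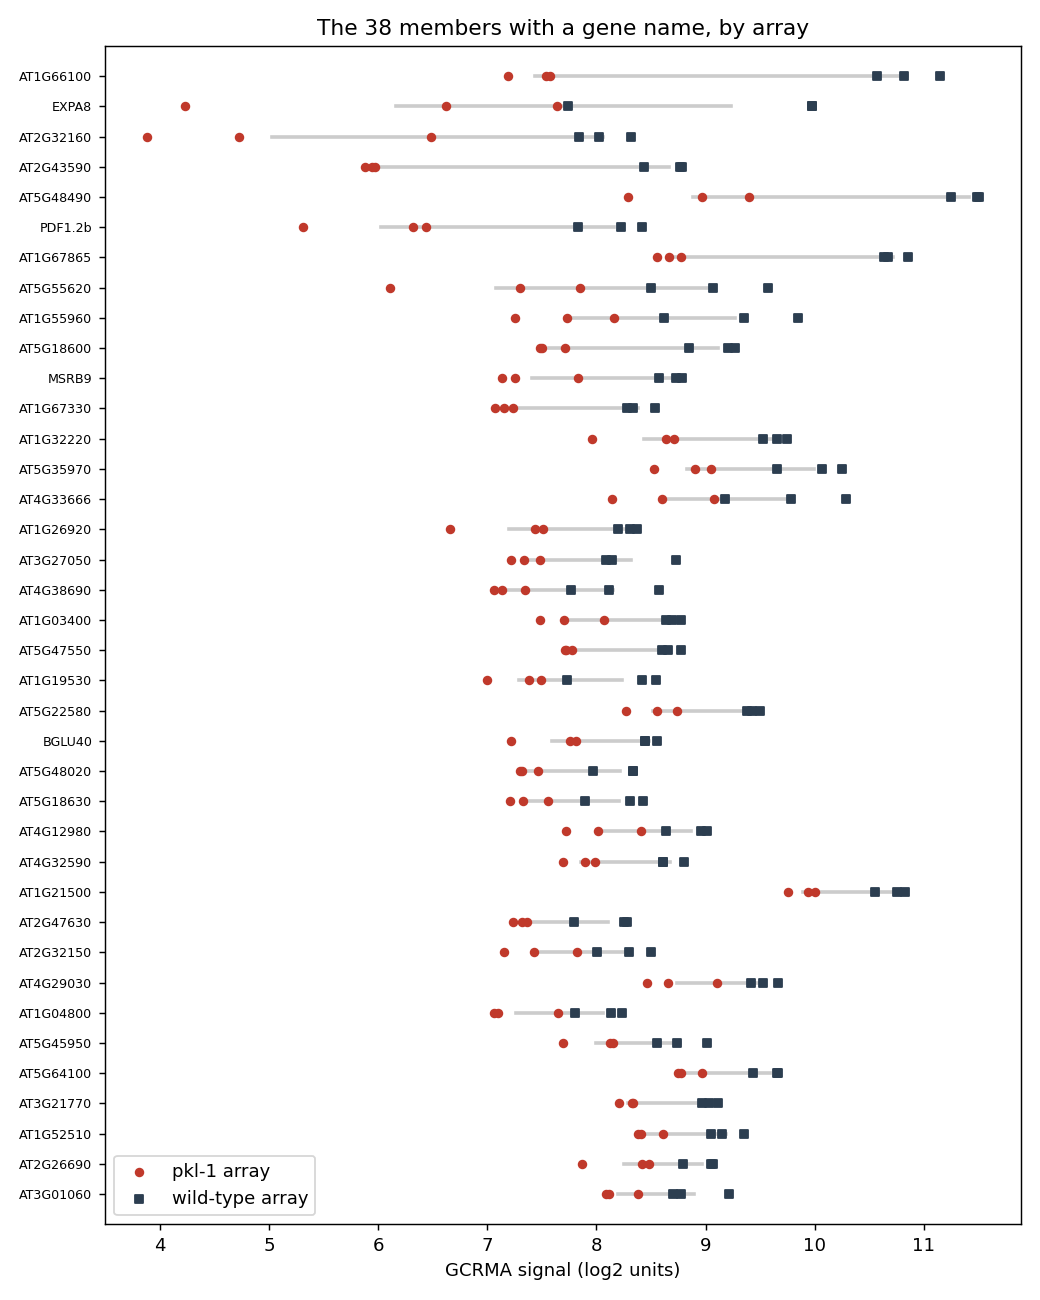
Signals (log2 units, x axis) of the 38 named members (rows, the most negative difference at the top) in each of the 3 pkl-1 arrays (red circles) and the 3 wild-type arrays (dark squares); grey lines join the genotype means. AT1G66100 and AT2G43590 show tight groups far apart, while EXPA8 and AT2G32160 show pkl-1 arrays spread over several log2 units.

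The 5 members placed under redox proteins and oxygenases had a median difference of -0.95. AT5G18600 encodes a glutaredoxin, of the CC type found in land plants, which uses glutathione to reduce other proteins. This gene read 8.85, 9.21 and 9.27 in wild type and 7.50, 7.48 and 7.71 in pkl-1, a 2.92-fold difference with the groups 1.14 log2 units apart. MSRB9, a methionine sulfoxide reductase that repairs oxidised methionine, read 8.79, 8.57 and 8.73 in wild type and 7.14, 7.25 and 7.83 in pkl-1. Its wild-type arrays were tight at 8.70 ± 0.11 and the pkl-1 arrays less so at 7.41 ± 0.37, 2.44-fold lower. AT1G03400 and AT5G48020 are members of the large class of oxygenases that use iron and 2-oxoglutarate or related cosubstrates. AT1G03400 read 8.77, 8.64 and 8.69 in wild type and 7.48, 8.07 and 7.70 in pkl-1, with a difference of -0.95. AT5G48020 had a difference of -0.85, and AT4G32590, a ferredoxin-like protein with an iron-sulfur cluster, one of -0.82.

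Among enzymes of other kinds and lipid-binding proteins, 8 members had differences from -3.03 to -0.72. AT2G32160, of the methyltransferases that use S-adenosylmethionine, read 8.31, 8.03 and 7.84 in wild type and 3.88, 6.49 and 4.73 in pkl-1. The wild-type arrays were close, at 8.06 ± 0.24, and the pkl-1 arrays the second most variable after EXPA8, at 5.03 ± 1.33, so its 8.16-fold difference rests on arrays that do not agree in size. AT1G55960, of a lipid-binding family related to polyketide cyclases, read 9.84, 9.35 and 8.61 in wild type and 8.16, 7.73 and 7.25 in pkl-1, a 2.94-fold difference. AT1G32220, a Rossmann-fold protein known from plastoglobules, the lipid bodies of chloroplasts, read 9.75, 9.52 and 9.65 in wild type and 8.64, 7.96 and 8.71 in pkl-1. Only replicate 2 of pkl-1 stood apart within its genotype there, and the difference was -1.20.

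AT4G38690, of the phospholipase C-like phosphodiesterases, read 7.77, 8.57 and 8.11 in wild type and 7.14, 7.35 and 7.06 in pkl-1. Its wild-type arrays ranged over 0.80 log2 units, nearly as much as its difference of -0.97. The alpha/beta hydrolase fold, common to many lipases and esterases, occurs in AT5G18630, AT2G47630 and AT1G52510, with differences of -0.84, -0.80 and -0.72. AT2G32150, a hydrolase of the haloacid dehalogenase type, had a difference of -0.80 and a gap between the genotypes of 0.18.

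The members with membrane, nucleic acid or stress proteins were 4. AT5G35970, a P-loop ATPase with helicase motifs, read 10.07, 10.25 and 9.66 in wild type and 9.05, 8.90 and 8.53 in pkl-1, a 2.24-fold difference. AT5G22580, a small protein of the stress-responsive alpha/beta barrel type, read 9.50, 9.43 and 9.37 in wild type and 8.74, 8.55 and 8.27 in pkl-1, at -0.91 with tight wild-type arrays. AT4G12980, a membrane protein of a family named for its response to auxin, had a difference of -0.82. AT2G26690, also known as NPF6.2, of the family of nitrate and peptide transporters, had one of -0.71.

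Of the 10 members with no role given, AT1G67865 had the most negative difference. It read 10.63, 10.85 and 10.67 in wild type and 8.67, 8.56 and 8.78 in pkl-1, at 10.72 ± 0.12 and 8.67 ± 0.11, a 4.15-fold difference with tight arrays on both sides. AT5G55620 read 9.57, 9.07 and 8.50 in wild type and 7.85, 7.30 and 6.11 in pkl-1, with wide SDs of 0.53 and 0.89. AT4G33666 read 10.29, 9.79 and 9.18 in wild type and 9.08, 8.60 and 8.14 in pkl-1. In AT4G33666 the spread within each genotype nearly closed the gap, which was 0.10 log2 units. AT1G26920 read 8.37, 8.31 and 8.19 in wild type and 7.51, 7.44 and 6.66 in pkl-1, with replicate 3 of pkl-1 the low array.

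AT3G27050 read 8.73, 8.08 and 8.15 in wild type and 7.48, 7.22 and 7.33 in pkl-1, a 1.97-fold difference. AT1G21500 read 10.75, 10.83 and 10.55 in wild type and 10.01, 9.93 and 9.75 in pkl-1, at -0.81 with SDs of 0.14 and 0.13. AT4G29030 read 9.66, 9.41 and 9.53 in wild type and 9.10, 8.46 and 8.66 in pkl-1, at -0.79. In these 3 genes the genotypes were separated by 0.60, 0.55 and 0.31 log2 units. AT1G19530, AT1G04800 and AT3G01060 had differences of -0.94, -0.79 and -0.70. The 14 named members whose single arrays are not printed had differences from -0.94 to -0.70, wild-type means from 8.06 to 9.18 and SDs up to 0.34 in pkl-1 and 0.44 in wild type.

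The same measure can be read in arrays that did not choose the probe sets. The conditions were applied to the 4 arrays of 2 replicate numbers, and the difference between the pkl-1 and wild-type arrays of the remaining number was then read. Leaving out number 1, 147 probe sets were chosen, and 126 of them (85.7%) were lower in pkl-1 in the pair left out, against 52.1% of all 4751 with a wild-type mean of 8 or more in the 4 arrays. Leaving out number 2, 123 of 124 were lower (99.2%, against 51.0% of 4721), and leaving out number 3, all 132 were lower (100%, against 52.5% of 4774). The median difference in the pair left out was -0.74, -0.92 and -0.99, beside -0.94, -0.95 and -0.95 in the arrays used. At or below -0.7 were 80, 81 and 107 of them, which is 54.4%, 65.3% and 81.1%, against 2.53%, 3.54% and 3.73% of all.

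Probe sets with a gene name that were chosen but not lower in the pair left out numbered 7 for number 1 and 1 for number 2 and, by the condition on every array, cannot be members. The widest reversals were AT2G39650 and AT3G04640, at -1.01 and -1.09 in the 4 arrays used and 1.56 and 1.41 in the pair of number 1. The 2 arrays of the pair left out carry the same number, which may or may not mean a shared culture or day, so a deviation common to both would drop out of their difference.

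**Figure D3:**
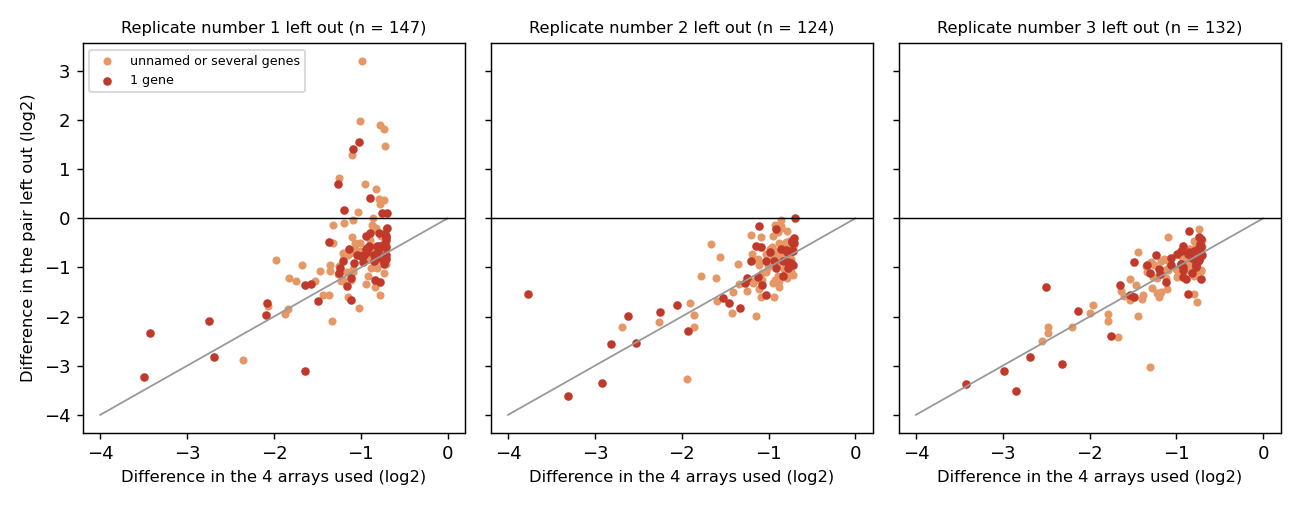
Each point is a probe set that met the conditions in 4 arrays, with its difference there (log2, x axis) and in the pair of arrays left out (log2, y axis), for numbers 1, 2 and 3; red points are paired with 1 gene, and the grey line marks equal values. Points above 0 on the y axis are most frequent with number 1 left out, 1 in number with number 2 left out and absent with number 3 left out.

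Within a genotype the members often deviated along the replicate number. In 17 of the 38 named members the array numbered 3 was the lowest of its genotype in mutant and wild type alike, and in 16 the array numbered 1 was the highest in both. Over all 105 these counts were 41 (39.0%) and 42. Over the 4736 probe sets with a wild-type mean of 8 or more they were 1263 (26.7%) and 1308 (27.6%), and over the 47 that were higher in pkl-1 they were 16 and 5. EXPA8, AT5G55620, AT1G55960, AT4G33666 and AT4G12980 were among the members with number 1 highest and number 3 lowest in both genotypes. AT5G18600 and AT2G32150 went the other way in part, with number 3 the highest array in both genotypes. AT5G18630 and AT5G47550 had number 1 lowest and number 2 highest in both. What the numbers share was not tested.

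**Figure D4:**
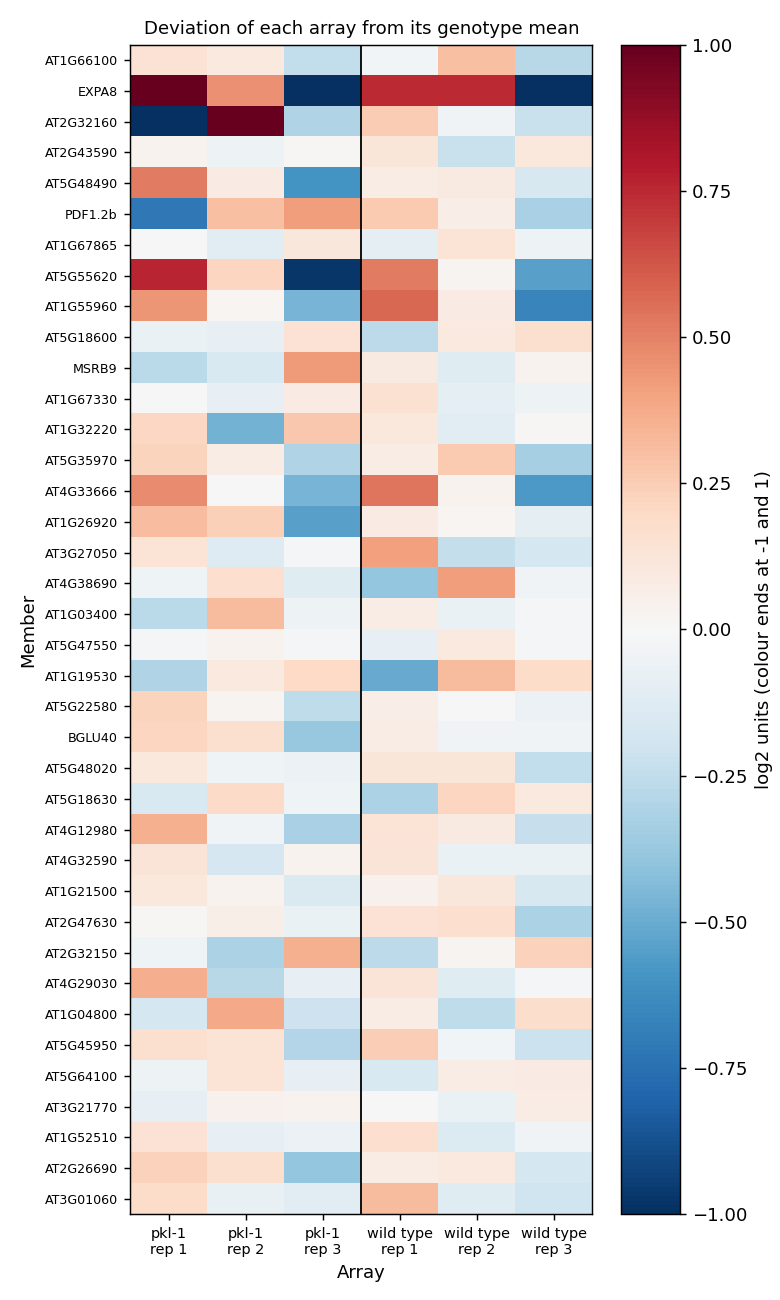
Deviation of each array from the mean of its genotype (log2 units, colour) for the 38 named members (rows, the most negative difference at the top), with the 3 pkl-1 arrays left of the line and the 3 wild-type arrays right of it. EXPA8, AT5G55620, AT1G55960 and AT4G33666 are blue in replicate 3 of both genotypes and red in replicate 1 of both.

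Position in the genome was not used in the choice. A locus in the TAIR10.1 gene table was found for 37 of the 38 members, all protein coding and all on nuclear chromosomes; AT1G67865 had none there. Chromosomes 1 to 5 held 11, 7, 3, 6 and 10 of them. Chromosome 3 held 8.11% of the members and 19.9% of the 2132 named probe sets with a wild-type mean of 8 or more and a locus in the gene table, and chromosome 1 held 29.7% and 24.5%. The genes of the members had a median length of 1638 bases (488 to 4608), against 2195 over those 2132 and 2290 over the 17 named probe sets that were higher in pkl-1. These shares and lengths are a description, with no test.

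The genes directly beside the members were read in the same fit. The 37 members have 74 different protein-coding neighbours, of which 2 are themselves members. Of the other neighbours 37 were measured by named probe sets, with a median difference of -0.06, and 22 of these differences were negative. In the limma fit 0 of the 37 were lower at an adjusted p of 0.05, against 1.31% of all probe sets, and 1 was higher (2.70%, against 1.06% of all). At an unadjusted p of 0.05, 4 were lower and 6 higher. The share of all probe sets at that unadjusted limit was not taken, so nothing is read from the 4 and 6. The neighbours named next were picked after their values had been seen.

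AT5G64110, the peroxidase gene next to the member AT5G64100, was the neighbour that rose. It read 5.01, 4.53 and 5.38 in wild type and 6.97, 7.10 and 6.83 in pkl-1, a 3.98-fold rise (limma adjusted p = 0.00778). All pkl-1 arrays of AT5G64110 were above all wild-type arrays, while its neighbour AT5G64100 showed the opposite order. Its call was lost without pkl-1 replicate 2 (limma adjusted p = 0.0534), with a difference of 1.93 there. A further peroxidase gene of the region, AT5G64120, was at -0.59 ± 0.24 (SE; limma adjusted p = 0.289). Signal shared between probe sets of such related genes was not tested.

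AT2G32150 and AT2G32160 are the one pair of members that are direct neighbours. Their differences of -0.80 and -3.03 were unequal, and their pkl-1 arrays did not rank alike: replicate 2 was the lowest for AT2G32150 at 7.16 and the highest for AT2G32160 at 6.49. On either side, AT2G32170 was at -0.03 ± 0.14 and AT2G32140 at 0.73 ± 0.58 (SE), and neither passed (limma adjusted p = 0.957 and 0.630). AT2G43580 and AT2G43600, which flank the chitinase gene AT2G43590, had low wild-type means of 1.50 and 2.64 and differences of -0.19 and -0.06. Among neighbours that did not pass, AT2G40600 beside EXPA8 was at -0.60 ± 0.12 (SE; limma adjusted p = 0.0523), and AT2G40620 on the other side of EXPA8 at -0.51 ± 0.26 (0.427). The oxygenase gene 2A6 (AT1G03410) beside AT1G03400 was at 0.65 ± 0.13 (SE; limma adjusted p = 0.0545). AT5G18600 and AT5G18630 have 2 protein-coding genes between them, and 1 of these, CHR17, was at -0.07 ± 0.15 (SE; limma adjusted p = 0.885).

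**Figure D5:**
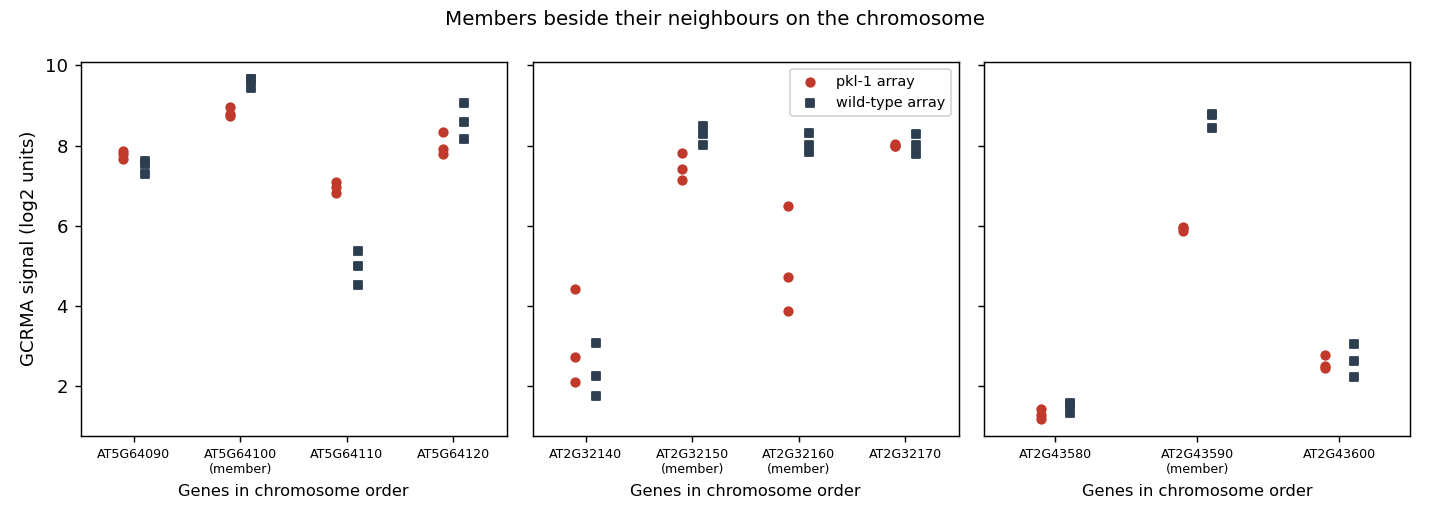
Signals (log2 units, y axis) of members and their neighbours in chromosome order at 3 loci, with pkl-1 arrays as red circles and wild-type arrays as dark squares. AT5G64100 is lower and AT5G64110 higher in pkl-1, AT2G32150 and AT2G32160 are both lower beside AT2G32170 at -0.03, and AT2G43590 stands between 2 genes of low signal.

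Other genes of 29 gene families and pathways that abundant seedling transcripts belong to were looked up, and those measured were tested in the same fit. For 6 of the 29 lists no gene was measured. Among these were lipid-transfer proteins and GDSL lipases, the families of the members AT5G48490 and AT5G45950. The lists were matched on symbols and synonyms, so genes with no family name there are missing from them, among them the members AT1G66100 and AT2G43590 and the peroxidase gene AT5G64110, and the counts below do not cover whole families. Named probe sets measured 140 matched genes that are not members. Of these 8 fell, against a background of 1.31% of all probe sets, and 2 rose, against 1.06%. The median difference of the 140 was -0.04, against 0.01 over all probe sets. The lists were chosen with earlier results of these data known, so these counts are a description and no independent test. EXLB1, which is among the 8, missed the choice of members only by its wild-type mean of 7.999. The list of expansins and xyloglucan enzymes, to which EXPA8 belongs, held 28 others, of which 3 fell and 25 did not pass, with a median of -0.13. EXLB1, an expansin-like gene, read 7.94, 7.98 and 8.08 in wild type and 6.62, 6.15 and 6.74 in pkl-1 (limma adjusted p = 0.00778), and passed with each single array left out. EXPB1, a beta-expansin, fell by 2.29 ± 0.37 log2 units (SE) and XTH19, a xyloglucan endotransglucosylase, by 1.14 ± 0.22. EXPB1 lost its call in 3 of the 6 fits with an array left out (limma adjusted p up to 0.114) and XTH19 in all 6 (0.0737 to 0.174). On all 6 arrays XTH19 also lost its call without the variance trend (limma adjusted p = 0.0588) and after centring on array medians (0.0532).

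Alpha-expansins other than EXPA8, taken by symbol, had small differences. The 9 measured ones had differences from -0.33 to 0.31, 8 of them negative. EXPA4, EXPA15 and EXPA9, with wild-type means of 9.12, 7.37 and 6.25, were at -0.02, -0.18 and -0.26. The rest had wild-type means from 1.57 to 4.75, low signals at which a fall has little room to show. Among 3 other defensin-type genes, PDF1.2 fell by 1.56 ± 0.20 log2 units (SE), and the 2 LCR genes of that list did not pass. PDF1.2 lost its call without replicate 2 of either genotype (limma adjusted p = 0.0566 and 0.0605). Signal shared between the probe sets of PDF1.2 and PDF1.2b was not tested.

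Of 24 cytochrome P450 genes 1 fell and 1 rose. CYP71B5 fell by 1.74 ± 0.16 log2 units (SE), from 5.98 ± 0.11 to 4.25 ± 0.05 (limma adjusted p = 0.00396). CYP71B36 rose by 1.77 ± 0.30, from a low wild-type level of 3.21, and lost its call in 5 of 6 fits with an array left out (limma adjusted p up to 0.131). Among 10 thioredoxin and glutaredoxin genes TRXF2, a chloroplast thioredoxin that activates Calvin cycle enzymes in light, fell by 0.58 ± 0.09; it lost its call in all 6 fits with an array left out (limma adjusted p 0.0535 to 0.0999). LHCB4.2, which belongs to the light-harvesting antenna of photosystem II, was 1 of 5 photosystem genes and fell by 0.50 ± 0.09; it lost its call in 4 of those fits (up to 0.122) and on all 6 arrays without the variance trend (limma adjusted p = 0.111). AT5G48570, an FKBP-type immunophilin, was 1 of 2 chaperone genes and fell by 2.63 ± 0.31, to a low level of 2.94; its call was lost without pkl-1 replicate 2 (limma adjusted p = 0.0539). The lectin JAL23 rose by 2.34 ± 0.27 as 1 of 5 lectin genes.

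In the remaining lists 0 of 63 matched genes passed the limma fit, against 1.31% of all probe sets called lower and 1.06% called higher. At an unadjusted limma p of 0.05 there were 11 lower and 6 higher. The share of all probe sets at that unadjusted limit was not taken, so nothing is read from the 11 and 6. The 63 genes included 13 glutathione transferases with a median of -0.43, 6 peroxidases at -0.18 (without AT5G64110, which rose but has no family name to match), 4 subtilases at -0.18, 4 pectin-modifying enzymes at 0.20, 3 flavonoid genes at -0.22, 3 Calvin cycle genes at 0.05, 9 calmodulin-like genes at 0.10 and 9 chromatin remodelling genes at 0.04. The rest were lists with 1 or 2 other genes measured, given by their median or single value, for thionins (0.03), chitinases (-0.02), pathogenesis-related proteins (-0.03), aquaporins (-0.01) and genes of glucosinolates (0.36), nitrate (0.07), sulfate (0.31) and jasmonate (-0.18). The 2 thionin genes went opposite ways, at -0.40 and 0.46, as did the 2 pathogenesis-related genes, at 0.26 and -0.33. Some of the 63 had low wild-type means, at which a fall has little room to show. Among these were the single nitrate gene at 1.52 and the single jasmonate gene at 1.46. Families of 3 further members were looked up by symbol after their values had been seen, and are given without a test. Of 19 other BGLU genes 9 differences were negative and 10 positive, from -0.81 to 1.93. Several of the 19 had low wild-type means, such as BGLU32 at 1.29, BGLU29 at 1.51 and BGLU19 at 1.60, where a fall has little room to show. The other MSRB genes were MSRB5 at 0.39, MSRB6 at -0.62 and MSRB3 at -0.33. Of 10 other genes of the NPF family 3 were negative and 7 positive, from -0.83 to 0.57 with a median of 0.08. AT3G21670 at -0.83 and AT1G59740 at -0.73 were more negative than the member AT2G26690 at -0.71. Among the positive ones, AT1G33440, AT3G25260, AT1G27040 and AT3G25280 had low wild-type means, from 1.54 to 2.20.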

How the data were processed

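RNA of 3 pkl-1 and 3 wild-type samples of whole seedlings was measured, 1 array each. What the authors deposited is a log2 signal for each probe set, which the submitters' processing notes credit to GCRMA; this method corrects background by probe sequence and normalizes arrays to each other; its version is not given in the sources used here, and the log2 scale was read from the values. Arrays have no depth, so their number limits the precision. After leaving out 64 control probe sets, 22746 were tested with limma 3.58.1 in R 4.3.3 (lmFit, eBayes with a trend, 2-sided, Benjamini-Hochberg over all, threshold 0.05). The method was tested on simulated data with independent noise in each array. Correlated deviations of same-numbered arrays, as found in the real data, were not simulated, so the simulation does not cover them. Platform annotation paired 13513 probe sets with 1 gene. The members, gene lists, named genes and alternatives were chosen with earlier results of these data known. Every member with 1 gene may be named; single arrays are printed for the 20 most negative differences, the 10 highest wild-type means and members of lists. List genes that are no members are named where they passed. The lists were matched on symbols and synonyms, and the brightest probe set stood for a gene; 6 lists had no measured gene, and a thionin pattern that also matched methionine was narrowed after the data were seen. The planned search for promoter motifs was not run. Alternatives were other variance priors, scalings, weights, a filter, a replicate block, other limits of the choice and left-out arrays.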

Additional observations from a re-analysis of the deposited data

How the results depend on the processing

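Of 105 probe sets, 104 were chosen again after quantile normalization and 105 after centring on array medians. A limit of -1 on the difference left 52, a wild-type mean of 9 left 45, one of 7 gave 185 and allowing overlap gave 121; with 1 array left out the number ran from 101 to 172, the highest without wild type replicate 3, and 86 to 103 of the 105 were chosen again. The median difference stayed between -1.08 and -0.93 with 1 array left out. None of 342 values of the 38 named members under 9 alternatives changed sign or moved by an SD or more, the larger of the SDs of the genotypes. The choice of members fixes the sign. Leaving out 1 of 3 arrays cannot move a genotype mean by a whole SD, and the replicate block returns the same differences. For those alternatives the outcome was therefore fixed in advance, and nothing is read from it.

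In the fit of all probe sets 540 passed, and 470 to 652 did under other priors, scalings, weights and the filter. With 1 array left out 123 to 303 passed, and 111 at an adjusted p under 0.01. Fewer arrays and a stricter limit lower such counts. Of the list genes that are no members 10 passed, and 3 to 8 with 1 array left out.

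A fit with replicate number as a block called 1518 of all 22746 probe sets, among them 103 of the 105, and 24 of the list genes. The same contrast chose the 105, so nothing is read from the 103. The cause of the larger counts was not tested. No label says that equal numbers mark a shared batch. Deviations of same-numbered arrays correlated across probe sets at 0.49, -0.02 and 0.58 for numbers 1, 2 and 3. With a wild-type mean of 8 or more these correlations were 0.64, 0.01 and 0.77. There pkl-1 number 1 against wild-type number 3 gave -0.76, and pkl-1 number 3 against wild-type number 1 gave -0.64. Number 2 of neither genotype correlated best with its own number. Deviations from a genotype mean sum to 0 over its 3 arrays, so all these correlations depend on each other. They cannot settle whether equal numbers are paired. Over all probe sets the correlations of number 2 were weak, from -0.09 to 0.10.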
